A study of Mus musculus with 2 samples.

Results

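The tumour suppressor p53 and a set of its feedback targets were followed at the level of polysome association and of mRNA abundance in NIH3T3 cells, with and without endoplasmic reticulum stress. The set held 10 genes: Trp53 itself, the p53 inhibitors Mdm2 and Mdm4, the growth brakes Cdkn1a, Ccng1 and Btg2, the stress proteins Gadd45a and Gadd45b, and the sestrins Sesn1 and Sesn2. They were found as the non-control spots that carry exactly these gene names on both arrays. All 10 had probes, 22 in all on 49 spots, among 18181 genes with a coding accession on the array.

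p53 is a transcription factor that is kept scarce by Mdm2, a ubiquitin ligase whose own gene p53 switches on, so that the pair forms a negative feedback loop. Mdm4 is a relative of Mdm2 that binds p53 and blocks its activity. Among the genes that p53 switches on are brakes of the cell cycle, such as Cdkn1a, and genes that limit growth and damage, such as the sestrins, which restrain the growth kinase mTORC1. Several of them, Gadd45a, Btg2 and Sesn2 among them, also answer to other stress pathways and so can move without p53. NIH3T3 is an immortalised mouse fibroblast line known to have lost the Cdkn2a locus, which encodes the Mdm2 inhibitor Arf, and Cdkn2a did not reach the abundance filter here.

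The control cells were untreated NIH3T3 cells in medium with 10% serum, and the stressed cells were the same line given thapsigargin at 10 µM for 3 h. Thapsigargin inhibits the calcium pump of the endoplasmic reticulum, and the resulting stress leads to phosphorylation of the initiation factor eIF2 and a general drop in protein synthesis. RNA was separated on a 10 to 40% sucrose gradient into a polysome-bound fraction (P, labelled with Cy3) and into a pool of free and monosomal RNA (FM, labelled with Cy5), and both were hybridised to 1 two-colour array per condition, with RNA of 3 preparations pooled in each. With 1 array per condition no difference has a replicate check, and no test between the conditions was possible. The spread between spots given here covers array error only, and that between probes also covers differences between the probes of a gene. Neither covers variation between cultures.

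log2 P/FM is the log2 ratio of the P to the FM signal of a probe and stands for its polysome association, or translation efficiency. The A value is the mean of both log2 signals and stands for mRNA abundance. A gene was taken as detected where a probe had A above 4.5 on both arrays, which held for 10188 genes. The median SD of a change was 0.10 in log2 P/FM between spots of 1 probe and 0.36 between probes of 1 gene, and for A it was 0.12 and 0.19.

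Fibroblast markers were in place, since 8 of 8 were detected, with A from 6.93 to 17.45 in control cells and from 8.90 to 16.87 under stress. None of 4 epithelial and none of 3 endothelial markers was detected. Of 3 leukocyte markers, Cd3e and Cd68 were, with A between 5.60 and 6.06 on both arrays. The arrays carried the marks of the treatment: the stress factor Ddit3 had 13.1-fold higher abundance and its log2 P/FM was higher by 2.58, and Atf4, whose translation is known to rise when eIF2 is phosphorylated, was higher by 3.42 in log2 P/FM. All 6 stress response genes of the list checked had higher A, from 0.79 for Atf4 to 3.71 for Ddit3. Most of all detected genes also had higher A, with a median change of 0.38. In log2 P/FM, Ppp1r15a (2.45) and Hspa5 (1.36) of that list were also higher, and Trib3 (-0.25) and Xbp1 (-0.24) were lower. Over all detected genes the median log2 P/FM was 0.31 in control cells and -0.30 under stress, with a median change of -0.69, and the median change in A was 0.38. Changes are therefore also given relative to these medians. By fraction, the all-gene median change was 0.03 in log2 P and 0.72 in log2 FM.

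The scale of the ratio depends on the normalization. The 10 spike-in probes, whose median log2 P/FM was -0.40 without stress and -2.95 with it, moved by -2.44 at the median. When log2 P/FM was scaled to them, the change of all genes had a median of 1.86 and all 10 genes of the p53 set were higher by 1 or more. With that median, most of all detected genes were higher by 1 or more too, and their share was not counted. Values below are without normalization, as the study processed its arrays, and the position of a gene among all genes was not altered by that scaling.

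The probes of Trp53, Mdm2 and Btg2 below are shown because they read the gene at the centre of the loop, its main inhibitor and the gene with the largest gain in polysome association of the 10. They are 60-base probes as printed on the array, all in lower case, and each runs through at least 1 reading frame without a stop codon.
Trp53, plus strand of mm9 chr11:69403134-69403193: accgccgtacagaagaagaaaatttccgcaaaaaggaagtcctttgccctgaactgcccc
Mdm2, minus strand of mm9 chr10:117129725-117129784: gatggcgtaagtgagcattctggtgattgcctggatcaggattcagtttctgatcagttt
Btg2, minus strand of mm9 chr1:135974181-135974240: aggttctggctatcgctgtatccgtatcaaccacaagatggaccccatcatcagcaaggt

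The promoters are shown for the link that defines the set. In RefSeq's windows of 300 bases (250 before and 50 after a start site, build GRCm38.p6), all 10 genes had a window and there were 13 in all. The p53 half-site (purines, then C, A or T at both central positions, G, then pyrimidines) occurred in 6 of these 13 windows and in the windows of 6 of the 10 genes. It occurred in 8.36% of all 32851 windows and in the windows of 9.55% of all 27025 genes, and it reads the same pattern on both strands. The stretches below hold the match in capitals with 10 bases on each side. Cdkn1a had a further match in the same window.
Trp53, plus strand of GRCm38.p6 chr11:69580274-69580303: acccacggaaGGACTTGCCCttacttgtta
Mdm2, minus strand of GRCm38.p6 chr10:117710925-117710954: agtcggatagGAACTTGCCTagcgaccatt
Cdkn1a, plus strand of GRCm38.p6 chr17:29090918-29090947: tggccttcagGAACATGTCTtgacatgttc
Ccng1, minus strand of GRCm38.p6 chr11:40755452-40755481: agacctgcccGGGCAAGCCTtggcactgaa
Gadd45a, minus strand of GRCm38.p6 chr6:67037428-67037457: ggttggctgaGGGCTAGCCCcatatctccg
Sesn1, plus strand of GRCm38.p6 chr10:41887256-41887285: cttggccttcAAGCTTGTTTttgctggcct

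A match is a description of the letters and not evidence of binding. The 6 genes with a half-site ran from -1.07 (Trp53) to 1.15 (Gadd45a) in their change in log2 P/FM and from -0.44 (Cdkn1a) to 3.30 (Gadd45a) in their change in A. The cyclic AMP response element TGACGTCA, searched on both strands, occurred in 1.79% of all windows and in 1 of the 13, that of Btg2, where it is shown in capitals. The element TTGCATCA, read by C/EBP and ATF4 partners, was searched on both strands, occurred in 0.895% of all windows and was not among the letters of the 13.
Btg2, minus strand of GRCm38.p6 chr1:134079304-134079331: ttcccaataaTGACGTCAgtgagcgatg

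All 10 genes were detected on both arrays, through 19 of the 22 probes. Their median log2 P/FM was -0.15 in control cells, below the 0.31 of all genes, and 0.07 under stress, above the -0.30 of all genes. The median change was 0.24 in log2 P/FM, with a range from -1.07 to 2.30, and 0.23 in A, with a range from -0.44 to 3.30. Of the 10 genes, 7 lay above the all-gene median change in log2 P/FM and 4 above that in A.

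Read against a change of 1 or more, the set split by gene. Btg2 and Gadd45a were higher in log2 P/FM, as were 11.1% of all genes, and Trp53 and Sesn1 were lower, as were 40.4%. Gadd45a, Gadd45b, Sesn1 and Sesn2 were higher in A, as were 11.8%, and none of the 10 was lower, as were 0.687%. By the study's translation classes, Btg2 and Gadd45a were inducible (a control value of 0 or less and a gain of 1 or more), as were 9.79% of all genes. Trp53, Ccng1 and Sesn1 were sensitive (lower by 0.8 or more), as were 46.5%. Gadd45b was resistant (0.8 or more on both arrays), as were 3.08%.

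**Figure D1:**
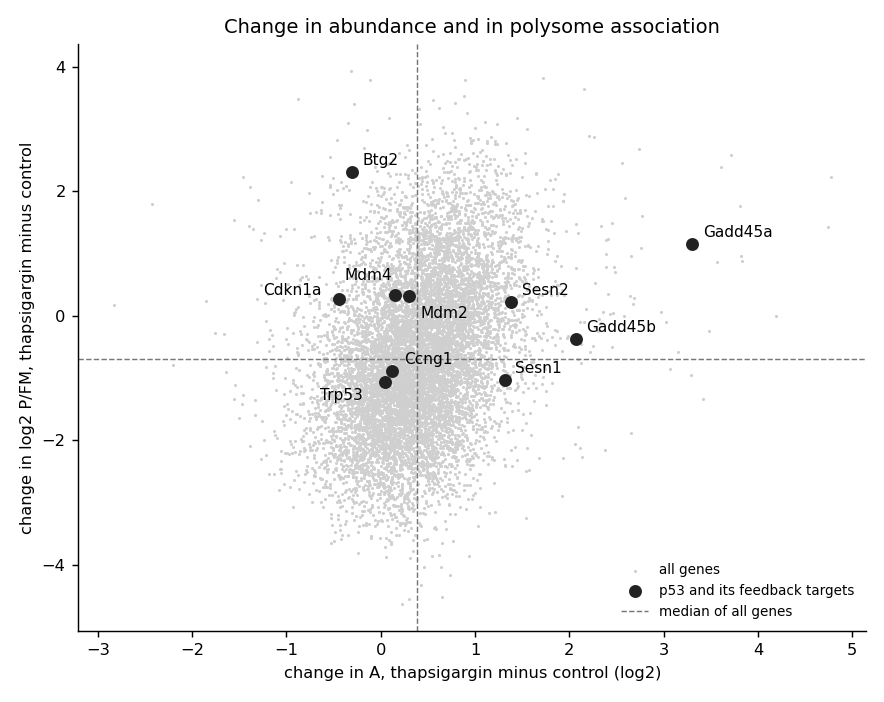
Change in log2 P/FM (y axis) against change in A (x axis, log2), both thapsigargin minus control, for 10188 genes (grey) and the 10 genes of the set (black), with dashed lines at the all-gene medians of -0.69 and 0.38. Btg2 stands high on the y axis with a change in A of -0.30, Gadd45a is far out on both axes, and Gadd45b, Sesn1 and Sesn2 lie to the right.

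Trp53 mRNA had lower polysome association under stress at nearly the same abundance. Its 2 probes lay 9175 bases apart on chromosome 11. On the 10 spots of the first, log2 P/FM ran from 2.55 through a median of 2.66 to 2.77 in control cells and from 1.49 through 1.55 to 1.67 under stress. The 10 spots of one array did not overlap those of the other. The second probe, 1 spot at chr11:69393959-69394017, went from 0.62 to -0.43. Both probes thus gave a similar change, -1.10 and -1.05, although their levels differed by 2.04 in control cells. In the FM fraction the signal of the first probe went from 284 to 511, and in the P fraction from 1780 to 1500. As a gene mean, log2 FM changed by 0.58, which was -0.14 relative to the all-gene median. The change in log2 P was -0.50, or -0.53 relative to the all-gene median.

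The gene mean of Trp53 moved from 1.63 to 0.56 in log2 P/FM, a change of -1.07, or 2.11-fold lower. It lay -0.38 from the all-gene median, with 38.1% of genes lower. In control cells 92.2% of genes had a lower log2 P/FM than Trp53, and under stress 82.4% did. The change in A was 0.04, within the spread between probes, with 0.30 at the first probe and -0.22 at the second. It was -0.34 relative to the all-gene median, with 25.2% of genes lower, and its sign turned under 4 of 13 alternatives. The direction of the change in log2 P/FM held under every alternative run except scaling to the spike-in probes, which gave 1.48, and its size was -0.32 after loess within each array.

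The genes most like Trp53 in their log2 P and log2 FM signals on both arrays, out of 10187 others, were Spryd3, Ywhaz and Ptrf. Their Euclidean distances to Trp53 over these 4 values were 0.21, 0.23 and 0.25. Ywhaz, which encodes a 14-3-3 adaptor protein, went from 1.41 to 0.37 in log2 P/FM. Spryd3 went from 1.51 to 0.34, and Ptrf, which encodes a coat protein of caveolae, from 1.97 to 0.54.

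The inhibitors of p53 were below the all-gene median of log2 P/FM on both arrays, Mdm2 by little under stress. Mdm2 had log2 P/FM of -0.67 in control cells and -0.35 under stress, and Mdm4 had -1.66 and -1.32. Their changes, 0.31 and 0.34, were within the 0.36 SD between probes of 1 gene, and relative to the all-gene median they were 1.00 and 1.03. For Mdm2 17.6% of genes had a lower log2 P/FM in control cells and 48.0% under stress, and for Mdm4 4.02% and 15.9%.

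The probes of Mdm2 differed. The 10 spots of the first ran from -0.71 through -0.52 to -0.23 in control cells and from -0.69 through -0.51 to -0.37 under stress, and they overlapped fully. Its mean change was 0.00 ± 0.14 (SD over 10 spots). The second probe, 1 spot at chr10:117126278-117126337, went from -0.81 to -0.18, a change of 0.63, with the P signal going from 186 to 333 and the FM signal from 327 to 377. The change in A of Mdm2 was 0.30 as a mean of 0.08 and 0.52, and normexp correction (-0.57), the processed signals (-0.094) and centring (-0.17) turned its sign.

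Mdm4 lay close to the filter, with mean A of 5.30 in control cells and 5.46 under stress. Of its 4 probes, 1 at chr1:134897893-134897952 was well above background in every channel, and its log2 P/FM went from -2.09 to -1.41, a change of 0.68. At the other probes the P signal in control cells, from 10.5 to 19.0, was not well above background. Their control log2 P/FM of -1.80, -1.41 and -1.48 and their changes of 1.01, -0.11 and 0.44 are therefore uncertain. The probe with a change of 1.01 did not reach the filter on A. The gene mean for Mdm4 rests in part on such probes.

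The growth brakes went in different directions. Cdkn1a encodes p21, the inhibitor of cyclin-dependent kinases through which p53 halts the cell cycle. Of the 10 spots of its probe at chr17:29237377-29237436, 8 were used, and their log2 P/FM ran from 0.46 through 0.50 to 0.76 in control cells and from 0.72 through 0.77 to 0.98 under stress. All 8 spots were higher under stress, and the ranges overlapped at their ends alone. The mean change was 0.27 ± 0.09 (SD over 8 spots), or 0.96 relative to the all-gene median, and 76.3% of genes had a lower one. Its abundance was lower, with A of 10.54 in control cells and 10.10 under stress, and 5.61% of genes had a lower change in A than its -0.44. The lower A was made up of a change of -0.30 in log2 P and -0.57 in log2 FM. Relative to the all-gene medians these were -0.34 and -1.29.

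Ccng1, which encodes cyclin G1, a partner of phosphatase 2A in the control of Mdm2, was the least polysome-associated of the 10 under stress. Its probe at chr11:40564413-40564472 went from -0.97 to -2.26 and the probe at chr11:40562427-40562486 from -1.62 to -2.11. The changes of -1.29 and -0.49 differed by more than the usual spread between probes. The gene mean moved by -0.89, which was -0.20 relative to the all-gene median, with A higher by 0.11. The change in A was -0.27 relative to the all-gene median, and its sign turned under 3 of 13 alternatives. The sign of the change in log2 P/FM was not stable for Ccng1: Feature Extraction's processed signals gave 0.068, as did its log ratio, loess gave 0.088 and spike-in scaling 1.66.

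Btg2, an antiproliferative partner of the deadenylase complex that shortens poly(A) tails, had the largest change in polysome association of the set. Its 3 probes, on chr1 between 135972094 and 135974240, went from -2.40 to 0.00, from -2.53 to -0.04 and from -2.09 to -0.07. At each of them the P signal was higher and the FM signal lower under stress: the probe shown above went from 65.3 to 114 in P and from 378 to 118 in FM. The log2 P/FM changes were 2.40, 2.49 and 2.02, with a mean of 2.30 ± 0.25 (SD over 3 probes), or 4.93-fold.

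In control cells 1.5% of genes had a lower log2 P/FM than Btg2, and under stress 60.6% did. Its change exceeded that of 98.9% of genes. Most of it came from the FM fraction, where log2 FM changed by -1.46, or 2.74-fold lower, while log2 P changed by 0.85, or 1.80-fold higher. Only 0.422% of genes had a lower change in log2 FM. The log2 P/FM change was between 1.28 and 4.85 under all 16 alternatives. The change in A was -0.30, below that of most genes (9.17% were lower), and its size depended on the processing. It ran from -1.06 with normexp to -0.24 with A above 7. With the log2 of the summed signals in place of A the change was -0.74, beside an all-gene median of 0.38.

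**Figure D2:**
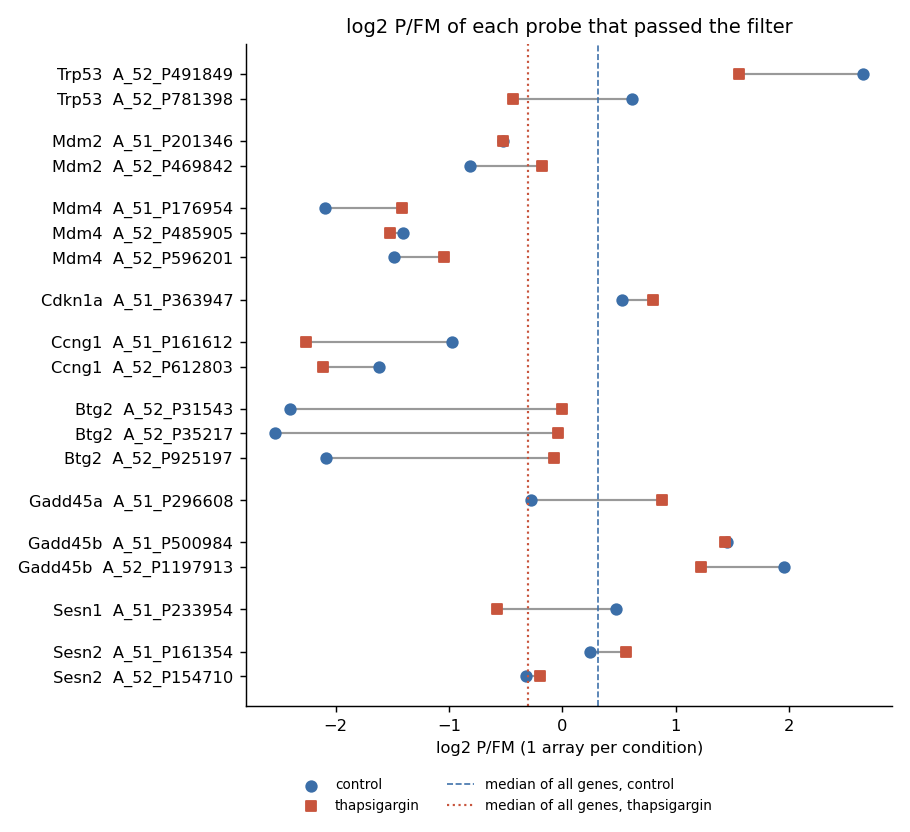
log2 P/FM (x axis) of the 19 probes that passed the filter, by gene, in control cells (blue circles) and under thapsigargin (red squares), with 1 array per condition and lines at the all-gene medians of 0.31 and -0.30. The 3 Btg2 probes move together from below -2 to about 0, both Trp53 probes move left by about 1 from different levels, and the Mdm2, Ccng1 and Gadd45b probes differ in the size of their shift.

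The Gadd45 proteins, small stress sensors that activate the p38 and JNK kinase cascades, had the largest gains in abundance. Gadd45a, with 1 probe at chr6:66985376-66985435 and 1 spot, had a P signal of 156 in control cells and 2290 under stress, and an FM signal of 188 and 1240. This is 14.7-fold higher in P and 6.60-fold higher in FM. A went from 7.42 to 10.72, a change of 3.30 that exceeded 99.9% of genes. log2 P/FM went from -0.27 to 0.88, a change of 1.15 (90.6% of genes lower), so that Gadd45a was the only one of the 10 higher by 1 or more on both measures. Both changes stayed above 1 under every alternative run, from 1.09 to 3.70 in log2 P/FM and from 2.16 to 3.36 in A.

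Gadd45b was polysome-associated before stress, with log2 P/FM of 1.71 in control cells (93.2% of genes lower) and 1.33 under stress (96.7%). At its probe at chr10:80394890-80394949 the P signal went from 1370 to 4650 and the FM signal from 500.0 to 1720, and log2 P/FM stayed at 1.45 and 1.44. At the probe at chr10:80394367-80394426 the P signal went from 3160 to 12600 and the FM signal from 812 to 5370, and log2 P/FM went from 1.96 to 1.23. Abundance was higher at both, by 1.77 and 2.36 in A, with a mean of 2.07 that exceeded 99.4% of genes. The mean change in log2 P/FM, -0.38, had no stable sign for Gadd45b, since Feature Extraction's processed signals gave 1.12, as did its log ratio, loess 1.07, centring 0.23 and spike-in scaling 2.17. Relative to the all-gene median this mean change was 0.31, with 59.6% of genes lower. Under the alternatives the relative value ran from -0.0008 to 1.38.

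The sestrins had higher abundance without a common change in polysome association. Sesn2, which is also a target of the ATF4 arm of the stress response, had A higher by 1.36 and 1.40 at its probes at chr4:132048858-132048917 and chr4:132047974-132048033, with a mean of 1.38 (96.6% of genes lower). Its P signal at the first probe went from 1090 to 3120 and its FM signal from 918 to 2110. log2 P/FM went from 0.25 to 0.56 at the first and from -0.32 to -0.20 at the second, a mean change of 0.22. This was within the 0.36 SD between probes of 1 gene, though above the 0.14 SD between the probes of Sesn2. Relative to the all-gene median it was 0.91, with 75.1% of genes lower.

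Sesn1 was read by 1 of its 3 probes, at chr10:41628000-41628059. Its P signal went from 239 to 414 and its FM signal from 173 to 616. A was higher by 1.31 (95.7% of genes lower), and log2 P/FM went from 0.47 to -0.57, a change of -1.04. The signal was thus higher in both fractions, 1.73-fold in P and 3.57-fold in FM. Relative to the all-gene medians the changes were 0.76 in log2 P and 1.12 in log2 FM. For log2 P/FM the relative change was -0.35, with 39.0% of genes lower. The other probes of Sesn1 had signals of 10.3 to 25.9, did not reach the filter, and in 7 of 8 readings were not well above background. When they were averaged in, by leaving out the filter or in the authors' table, the change in log2 P/FM of Sesn1 became 0.040, and spike-in scaling gave 1.51.

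**Figure D3:**
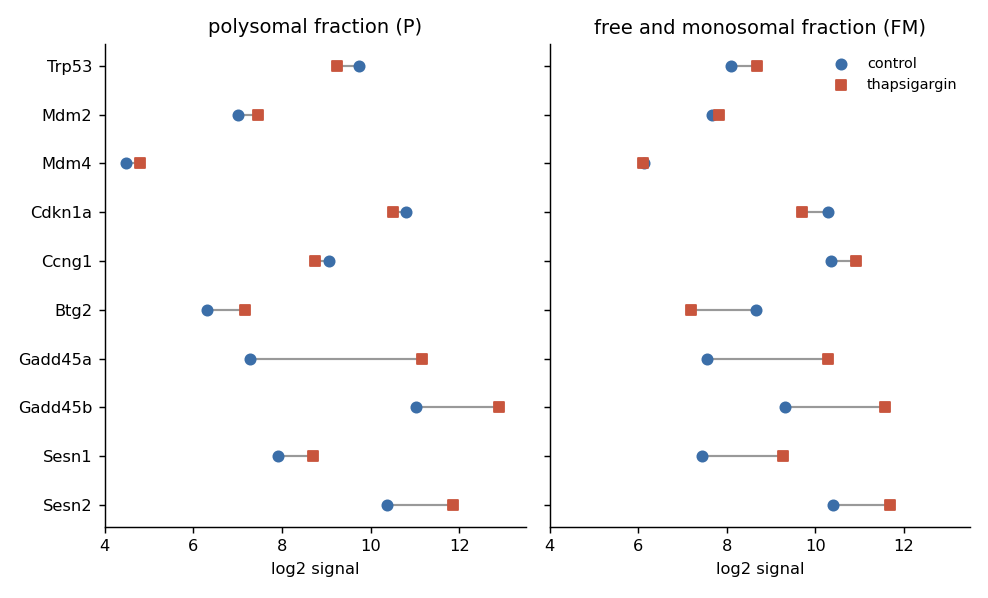
log2 signal (x axis) of each of the 10 genes in the P fraction (left) and the FM fraction (right), as the mean over its probes, in control cells (blue circles) and under thapsigargin (red squares), with 1 array per condition. Gadd45a, Gadd45b, Sesn1 and Sesn2 are higher in both fractions, whereas Btg2 is higher in P by 0.85 and lower in FM by 1.46. The all-gene median change was 0.03 in log2 P and 0.72 in log2 FM.

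Ranked by log2 P/FM in control cells, the set ran from Btg2 (-2.34) through Mdm4, Ccng1, Mdm2, Gadd45a, Sesn2, Sesn1, Cdkn1a and Trp53 to Gadd45b (1.71). Neighbours within the 0.32 SD between probes of 1 gene were Gadd45a and Sesn2, Sesn1 and Cdkn1a, and Trp53 and Gadd45b, 3 of 9 pairs. Under stress it ran from Ccng1 (-2.19) through Mdm4, Sesn1, Mdm2, Btg2, Sesn2, Trp53, Cdkn1a and Gadd45a to Gadd45b (1.33). Within the 0.30 SD of that array were 4 of 9 pairs, Sesn1 and Mdm2, Btg2 and Sesn2, Trp53 and Cdkn1a, and Cdkn1a and Gadd45a. The probes of Trp53 had SDs of their own of 1.44 in control cells and 1.41 under stress. These exceed its gaps of 1.11 to Cdkn1a and 0.38 to Sesn2, so that its place is uncertain. In control cells the SDs between the probes of Ccng1 (0.46) and of Mdm4 (0.38) exceed the gap of 0.36 between these genes. Under stress the SD between the probes of Sesn2 (0.54) exceeds its gap of 0.38 to Trp53. The order within these pairs is uncertain too. The place of Mdm4 rests in part on probes that were not well above background in control cells. Btg2 moved from the first to the fifth place and Gadd45a from the fifth to the ninth.

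Of 57 other genes of the p53 pathway, 47 were detected. Their median change in log2 P/FM was -0.22, between the 0.24 of the set and the -0.69 of all genes, and their median change in A was 0.41. With normexp the order of the medians turned, at 0.26 for these genes and 0.20 for the set, and the sign of -0.22 turned with normexp, the processed signals (0.091), the log ratio (0.091), loess (0.26), centring (0.39), spike-in scaling (2.33) and without a filter on A (0.048). In log2 P/FM 10 of the 47 (21.3%) were higher by 1 or more and 13 (27.7%) lower, beside 11.1% and 40.4% of all genes. In A 11 (23.4%) were higher by 1 or more, beside 11.8%, and none was lower.

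Relatives of the 10 genes had a median change of -0.68 over 7 detected. Btg1, of the same family as Btg2, had the largest rise, from -0.42 to 0.37, and Btg3, also of that family, the largest fall, from 1.60 to -0.64. Their changes were 0.80 and -2.24, beside 2.30 for Btg2. Gadd45g, the further member of the Gadd45 family, had A higher by 3.02 with a log2 P/FM change of -0.10.

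Kinases and cofactors that act on p53 had a median change of 0.41 over 11 detected. Atr, the kinase that signals stalled replication to p53, went from -0.58 to 0.91, and the acetyltransferase Kat5 from 0.87 to -0.34. Ubiquitin ligases and proteases of p53 had a median of -0.74 over 6. Trim24, a ligase of p53, went from -0.46 to -0.27 and Otub1, a deubiquitinase family member, from 1.68 to -0.25.

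Cell death targets of p53 had a median change of -0.70 over 10 detected, with 2 of 10 higher by 1 or more, beside 11.1% of all genes, and 4 of 10 (40.0%) lower, close to the 40.4% of all genes. Bax, which opens the outer mitochondrial membrane in apoptosis, had the largest fall, from 0.92 to -1.41, and Trp53inp1, a cofactor of p53 in cell death, the largest rise, from -1.71 to 0.56. Growth arrest, repair and metabolism targets had a median of 0.37 over 13, with 4 (30.8%) higher and 2 (15.4%) lower, beside 11.1% and 40.4% of all genes. Plk2, a polo-like kinase, went from -0.32 to 1.97, and Phlda3, an inhibitor of the kinase Akt, from 1.64 to 0.06. The difference between these groups was not tested.

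**Figure D4:**
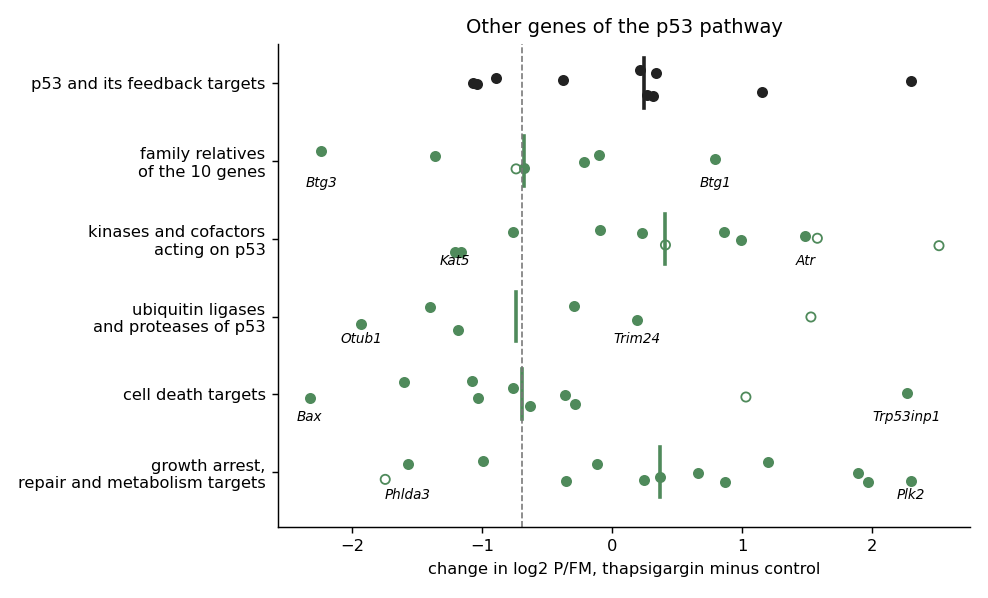
Change in log2 P/FM (x axis, thapsigargin minus control) of the 10 genes of the set (black) and of the 47 detected other p53 pathway genes (green) in 5 groups, with bars at each median and a dashed line at the all-gene median of -0.69. Open circles are genes with a probe that is not well above background, and the vertical position within a group carries no value. The group medians run from -0.74 to 0.41, and single genes in the groups run from Bax at -2.33 to values above 2.

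**Figure D5:**
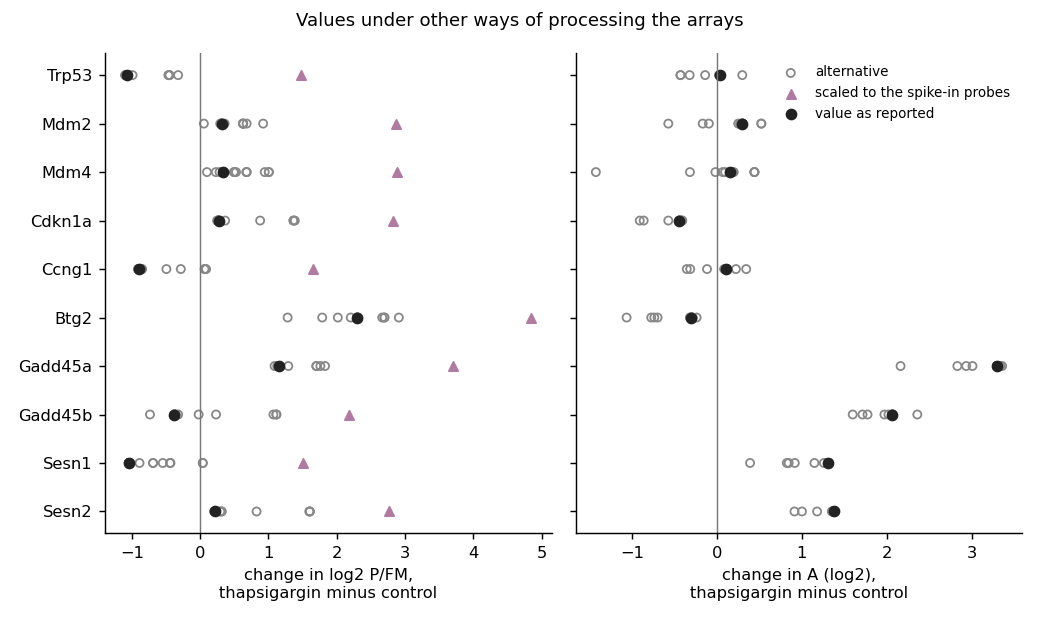
Change in log2 P/FM (left) and in A (right, log2), thapsigargin minus control, of the 10 genes as reported (black), under the alternative ways of processing (open circles) and with spike-in scaling (triangles, ratio only). Btg2 and Gadd45a stay above 1 in log2 P/FM and Gadd45a and Gadd45b above 1 in A throughout, whereas open circles of Ccng1, Gadd45b and Sesn1 lie on both sides of 0 on the left.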

How the data were processed

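The study measured polysome-bound (P, Cy3) and free plus monosome (FM, Cy5) RNA of control and thapsigargin-treated NIH3T3 cells, from 4 plates each, with P and FM RNA labelled in amounts that kept the proportions of the fractions and summed to 300 ng. Per the file headers, the deposited spot and background intensity values came without normalization from Agilent Feature Extraction 10.7.1. That software's processed intensity values, its log10 ratio of Cy5 to Cy3 and other flags were deposited too. A table by the authors gives log2 Cy3/Cy5, and 99.99% and 100.0% of its values equalled means computed here within 0.001.

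Here each spot's mean signal had its median local background removed, values under 0.5 became 0.5, and no normalization was applied. The 295 spots flagged as outliers on either array, 2 of them on the Cdkn1a probe, were left out. Spots were averaged per probe, and probes with A above 4.5 on both arrays per gene name. All changes are thapsigargin minus control, and no test was made. Depth has no meaning for arrays, whose number limits the precision. A probe counted as well above background by the deposited flag. Positions are those of the deposited files on mm9, whose annotation was not used here, so exons are not given. In each pathway group the genes with the largest rise and fall among those well above background in every channel were named. Gadd45g, Ddit3, Atf4 and the markers came from fixed lists, and Gadd45g was singled out after its values were seen. The genes most like Trp53 were the 3 nearest by Euclidean distance.

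The 10 genes, the pathway lists and the thresholds were chosen with earlier results of these data known. Python 3.11.15 (pandas 2.3.3) and, for normexp with offset 50 and loess, limma 3.58.1 in R 4.3.3 were used, and the steps were tested on simulated data. The alternatives covered background correction, spot signal, normalization, the filter on A, the choice of probes and the measure of abundance.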

Additional observations from a re-analysis of the deposited data

How the results depend on the processing

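Of the 17 alternatives, those that changed the background correction or the normalization moved the values most, and the cause was not tested. The median change in log2 P/FM over the 10 genes was 1.06 with the processed signals and with the log ratio of Feature Extraction, 0.88 with loess, 0.85 with centring and 2.79 with spike-in scaling. The median log2 P/FM in control cells was -0.60 with the processed signals and with the log ratio, -0.66 with loess and 0.25 with spike-in scaling. Under stress it was 0.46 with the processed signals and also the log ratio, 0.42 with loess, 0.37 with centring and 3.03 with spike-in scaling. Genes higher by 1 or more in log2 P/FM numbered 6 with the processed signals and also the log ratio, 5 with loess and 10 with spike-in scaling. The all-gene median change was -0.265 with the processed signals and also the log ratio, -0.15 with loess and 1.86 with spike-in scaling. Genes lower by 1 or more numbered 0 with normexp, no background subtraction, the processed signals, loess, centring, spike-in scaling and the log ratio, and 1 with the authors' table and without a filter on A. The median change in log2 P/FM over the other pathway genes was 0.26 with normexp and with loess, 0.091 with the processed signals and also the log ratio, 0.048 without a filter on A, 0.39 with centring and 2.33 with spike-in scaling. The median change in A over the 10 genes turned to -0.27 with normexp, -0.055 with the processed signals and -0.24 with centring, and was 0.52 with A above 7 and 0.44 with the brightest probe of each gene. Genes higher by 1 or more in A numbered 2 with centring, and genes lower by 1 or more numbered 2 with normexp. The share of all genes called was not counted under the alternatives, so these counts have no background beside them.

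For single genes, the change in log2 P/FM turned to 1.48 for Trp53 with spike-in scaling. For Ccng1 it turned to 0.068 with the processed signals and also the log ratio, 0.088 with loess and 1.66 with spike-in scaling. For Gadd45b it turned to 1.12 with the processed signals and also the log ratio, 1.07 with loess, 0.23 with centring and 2.17 with spike-in scaling. For Sesn1 it turned to 0.040 with the authors' table and without a filter, and to 1.51 with spike-in scaling. The change in A of Mdm2 turned to -0.57 with normexp, -0.094 with the processed signals and -0.17 with centring. That of Trp53 turned to -0.43 with normexp and with centring, -0.32 with the processed signals and -0.14 with the log2 of the summed signals. That of Mdm4 turned to -1.42 with normexp, -0.02 with the processed signals and -0.32 with centring. That of Ccng1 turned to -0.12, -0.31 and -0.35 with the same 3. Taking the brightest probe left out Sesn2, whose brightest probe has no NM accession, Mdm4 did not pass A above 7, and ratio-only alternatives gave no A. The all-gene median change in log2 P/FM ran from -1.0 with A above 7 to 1.86 with spike-in scaling. No paired analysis was possible because each condition had 1 array, which also left no replicate to leave out.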
